A study of Homo sapiens with 8 samples.

Results

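The sites described here are cytosines in nuclear 3′ untranslated regions (3′ UTRs) at which reads from NSun6 miCLIP libraries of HEK293 cells began. A read start was assigned to whichever cytosine of its strand lay closest, at most 2 nt away and the 5′ one in a tie, and a cytosine was kept when it held more than 50 RPM, its reads scaled to a fixed library total, in at least 2 of 3 NSun6 libraries and lay in a 3′ UTR of a protein-coding gene and in no coding sequence. The rule kept 548 of the 1794 nuclear NSun6 sites, against 578 sites in coding exons, and the 548 sites lay in 493 genes. The sites were chosen by RPM in the NSun6 libraries, so RPM at the sites is given as a description and was not tested.

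NSun6 belongs to the NOL1/NOP2/Sun domain family of RNA methyltransferases, which place a methyl group on carbon 5 of cytosine (m5C). Its best known substrates are tRNA-Cys and tRNA-Thr, which it methylates in the acceptor stem beside the CCA end. The active site cysteine of such an enzyme forms a transient covalent bond with the target cytosine, and in miCLIP a version of the enzyme that does not release the RNA stays attached, so that reverse transcription stops at or beside that cytosine. The 3′ UTR is the part of an mRNA behind the stop codon, where many RNA-binding proteins and miRNAs bind.

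HEK293 is an established human embryonic kidney cell line. Myc-tagged NSun6 or NSun3 constructs had been transfected, the cells were harvested 24 hours later and the enzyme was pulled down with the anti-myc antibody, in 3 replicates for each enzyme. NSun3, a related enzyme of mitochondria, was tagged and pulled down in the same way and served as the comparison. Per the paper, the NSun3 construct was a catalytic mutant, with the active site cysteine that releases the RNA changed to alanine. All 6 miCLIP samples carried a transfected, overexpressed enzyme, and no library from untransfected cells was analysed here. The NSun6 construct's mutation is not given in the sources used here. Bisulfite sequencing of poly(A) RNA from HEK293 cells, in which unmethylated cytosine is converted and m5C is read as cytosine, was available as 1 table that does not separate its 2 samples and so carries no replicate error.

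The NSun6 libraries held 305392 to 467586 reads and the NSun3 libraries 47352 to 138921, so that 1 read was worth 2.14 to 3.27 RPM for NSun6 and 7.20 to 21.1 RPM for NSun3. The threshold of 50 RPM required 16 to 24 reads in an NSun6 library. Exons of NSUN6 itself held 323 to 428 reads in the NSun6 libraries and 0 in each NSun3 library. Of the markers used to check the cell line, the 3′ UTRs of VIM, KRT8, KRT18, CDH2 and NES had a mean of 16.9 to 1307 bisulfite reads per cytosine, and those of PTPRC, HBB, ALB and INS, genes of blood, liver and pancreas, had 0.

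The sequences of the 10 sites with the highest mean RPM are shown because they had the highest NSun6 signal of single sites, each as 30 bases from 5′ to 3′ on the transcript strand of the hg19 reference (GRCh37), with the assigned cytosine and the 4 bases behind it in capitals.
CALR, chr19:13055117-13055146, plus strand: gaagggggtggtgtCTCCAaccccccagca
H4C1, chr6:26022217-26022246, plus strand: aaggttgctgatttCTCCAcagcttgcatt
RHOG, chr11:3848349-3848378, minus strand: atgctctctcccttCTCCAatgagggagcc
PITPNB, chr22:28249370-28249399, minus strand: gattagtacaatttCTCCAaagtactgtac
H4C4, chr6:26188971-26189000, minus strand: gcggctgagcttacCTCTAcagtacactac
MLF2, chr12:6857376-6857405, minus strand: ggtttaggggccccCTCCAtccctcagcta
ECHS1, chr10:135176240-135176269, minus strand: ggtgtgcagttcctCTCCAattgctgcgtg
SCRN1, chr7:29962983-29963012, minus strand: agaaagggacccctCTCCAgtcctggctcc
NVL, chr1:224415309-224415338, minus strand: tcagccggtgatgtCTCCAgcagccggctt
DAB2IP, chr9:124547446-124547475, plus strand: gaccgaggctacagCTCCAcacgccccggt
Of these, 9 share the letters CTCCA from the assigned cytosine on and H4C4 has CTCTA.

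Most 3′ UTR sites shared this pentamer. CTCCA began at the assigned cytosine in 490 of 548 sites, or 89.4% (exact 95% interval 86.5% to 91.9%), and CTCTA in 41 (7.48%). In 8 sites the assigned cytosine was a later one of CTCCA, 6 sites began with another sequence starting CTC, and 3 had none of these. The sites of coding exons held CTCCA in 88.1% (85.1% to 90.6%), an interval that overlaps that of the 3′ UTR sites. In nuclear sites outside both classes it was 26.9% (23.6% to 30.5%). CTCCA was searched on the transcript strand only, and the motif was not part of the rule, although a read start on its T lies equally near the first and the second cytosine and the tie rule then takes the first. With ties given to the 3′ cytosine instead, the share of sites assigned to the first cytosine of CTCCA was 44.4%, and 91.3% were assigned to some cytosine of CTCCA.

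The base before the pentamer was most often T. Among sites with CTCCA, T preceded the motif in 63.1%, C in 21.8%, A in 9.39% and G in 5.71%. For comparison, 1381 CTCCA pentamers in the same 3′ UTRs had no NSun6 read within 2 nt, and T preceded 19.6% of these and 16% of the 926 among them with more than 5 bisulfite reads. In coding sites of any sequence T stood there in 60.9%. Only uniquely placed reads were kept, so an unread pentamer in repeated sequence could lack reads for that reason, which was not tested. The share with T was 72.0% in the 182 3′ UTR sites with the highest mean RPM, 62.1% in the next 182 and 59.2% in the lowest 184. Of all 2472 CTCCA pentamers in the 3′ UTRs that hold a site, 19.9% (18.3% to 21.5%) were themselves sites, so the letters alone did not mark a site.

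Read starts around the motif are given as a description, since the rule chose these sites by reads assigned to the first cytosine. A start on a later cytosine of the motif was assigned to that cytosine, so low shares there follow in part from the rule. Of the NSun6 reads that began within 15 nt of the motif at the 490 sites, 42.9% ± 1.79 (SD, n = 3 libraries) began at the first cytosine and 49.7% ± 1.97 at the T behind it. The second cytosine held 2.65% ± 0.391 and the base before the motif 0.821% ± 0.159. The highest count lay on the first cytosine at 241 sites and on the T at 249, a division that the assignment within 2 nt limits to nearby bases but does not set.

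**Figure D1:**
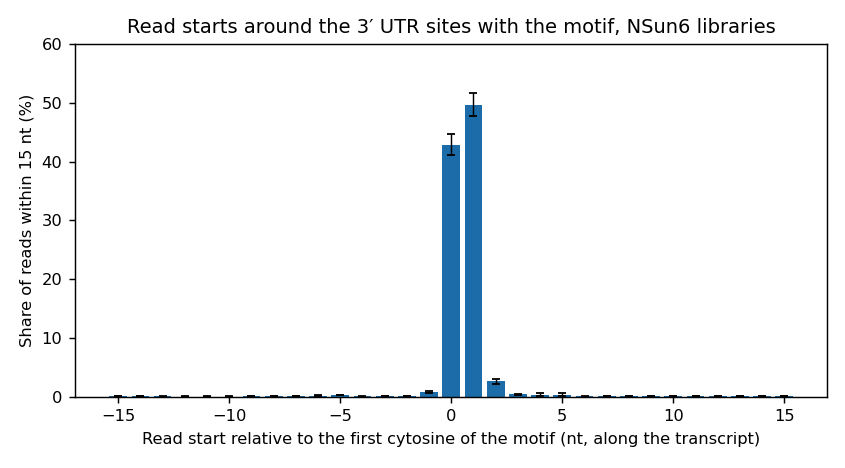
Share of NSun6 read starts at each position relative to the first cytosine of CTCCA (position 0), as a percent of reads within 15 nt, over the 490 sites; bars are means and error bars SD of 3 libraries. The first cytosine (42.9%) and the T behind it (49.7%) hold most of the reads, and no position outside the motif reaches 1%.

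Single sites differed in which of these bases the reads preferred. Among 319 sites with at least 20 reads on both bases together in each library, the share at the cytosine ran from 7.24% to 89.4% with a median of 49.3%, and the median difference between the highest and the lowest library of a site was 17.2 percentage points. The shares of the same sites correlated between libraries with Pearson's r of 0.651 to 0.729 across the 319 sites, which are not independent replicates. Where G followed the motif the median share at the cytosine was 42.5% (118 sites), against 47.9% for A (81 sites), 56.1% for C (54 sites) and 61.0% for T (66 sites), with wide overlap between these sets.

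The strongest site lay in the 3′ UTR of CALR, which encodes calreticulin, a calcium-binding chaperone of the endoplasmic reticulum. It held 3294, 2870.1 and 3821 RPM in NSun6 replicates 1, 2 and 3, at position 404 behind the stop codon of a 576-nt 3′ UTR. The next was in H4C1, a histone H4 gene, with 3291, 2449 and 2937 RPM at 13 nt behind the stop codon. Both sites were high in every NSun6 library, and their ranges overlap.

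RHOG followed with 2161, 1668 and 2164 RPM. PITPNB, a phosphatidylinositol transfer protein, had 1658, 1125 and 1598 RPM. H4C4, a second histone H4 gene with the CTCTA sequence, had 1361, 1142 and 1595 RPM at 7 nt behind the stop codon. Each library placed these below H4C1.

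MLF2 was steadier, with 1272, 1328 and 1418 RPM. ECHS1, an enoyl-CoA hydratase of mitochondrial fatty acid oxidation, held 1732, 1052 and 1169 RPM, and SCRN1 1148, 1384 and 1329 RPM. NVL, an AAA ATPase of ribosome biogenesis, had 1102, 1161 and 1307 RPM, and DAB2IP, a Ras GTPase-activating protein, 1093, 1022 and 1323 RPM. The order among the sites from MLF2 to DAB2IP changed from library to library. The NVL cytosine also lies in an exon of another gene, as do 61 of the 548 sites.

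**Figure D2:**
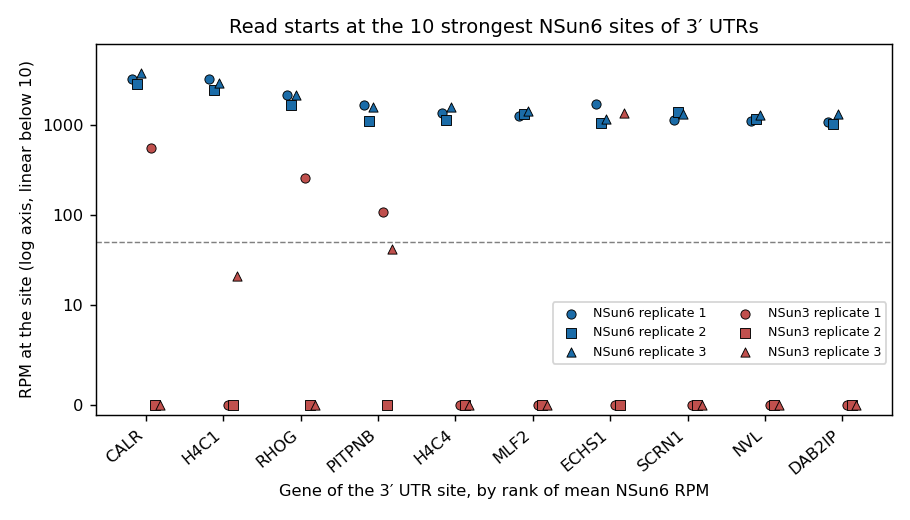
RPM at the 10 strongest 3′ UTR sites in each library, on an axis that is logarithmic above 10 and linear below; blue symbols are NSun6 replicates, red symbols NSun3 replicates, and the dashed line is the threshold of 50 RPM. All NSun6 points lie at 1022 RPM or more, and NSun3 points other than 0 appear at 5 sites, among them ECHS1 with 1352 RPM in replicate 3.

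Across all 548 sites the mean RPM of the 3 NSun6 libraries had a median of 111 and quartiles of 71.2 and 204, with the lowest at 40.7 and the highest at 3328. The coefficient of variation over the libraries had a median of 25.8% and reached 96.3%. Of the sites, 395 (72.1%) passed 50 RPM in all 3 libraries. Between libraries log2(RPM + 1) correlated with Pearson's r of 0.757 to 0.843, across sites that the threshold had selected.

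To see how far a site found in 2 libraries returned in one not used to find it, 3′ UTR cytosines over 50 RPM in both of 2 libraries were looked up in the other library. With replicate 1 left out 395 of 449 passed again (88.0%, exact 95% interval 84.6% to 90.8%), with replicate 2 left out 395 of 452 (87.4%, 84.0% to 90.3%) and with replicate 3 left out 395 of 437 (90.4%, 87.2% to 93.0%). At least 1 read was present in 99.6% to 100% of them. Coding sites returned in 82.2% (78.5% to 85.6%), 83.8% (80.1% to 87.1%) and 91.2% (88.1% to 93.7%), so the intervals of the classes overlapped for each library. Just inside the threshold lay SLC30A7 with 83.4, 51.3 and 29.5 RPM, HDGF with 15.4, 51.3 and 62.2 RPM and MARK2 with 49.4, 51.3 and 58.9 RPM. Just outside lay VAMP3 with 49.4, 83.4 and 22.9 RPM, QSER1 with 49.4, 2.14 and 68.8 RPM, and a cytosine 2 nt before the strong ECHS1 site with 49.4, 47.1 and 52.4 RPM.

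NSun3 libraries, which the rule did not use, had a read at 1.82% of the 3′ UTR sites, 1.21% of the coding sites and 49.7% of the other nuclear NSun6 sites. These shares are descriptions, since all of these cytosines were chosen for NSun6 reads. Of the 548 sites, 538 had no read in any NSun3 library, and a count of 0 there allows up to 21.6, 56.6 and 63.4 RPM in NSun3 replicates 1, 2 and 3. The 10 sites with NSun3 reads included CALR (554 RPM in replicate 1, 0 in the others), RHOG (259, 0 and 0 RPM), ECHS1 (0, 0 and 1352 RPM), PTOV1 (180.0, 0 and 0 RPM) and TNIP2 (0, 1659.6 and 0 RPM). In each of these 5 sites the reads came from a single NSun3 library. TNIP2, a regulator of NF-κB signalling, was the one among them with more RPM in an NSun3 library than in any NSun6 library, where it held 179, 130.5 and 131 RPM.

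The classes of reads were compared between the enzymes over all reads of a library. The NSun6 reads at the 548 sites are part of these. They made up 10.6% to 12.2% of a library and 51.2% to 57.6% of the reads given to 3′ UTR cytosines. The comparisons and their p-values are therefore not independent of the values that chose the sites, and give no separate support for them. Reads in nuclear 3′ UTRs made up 21.7%, 21.8% and 22.1% of the NSun6 libraries and 0.762%, 0.504% and 0.606% of the NSun3 libraries. The groups did not overlap, with a difference of 21.2 percentage points (exact two-sided permutation test, p = 0.1, the smallest p that 3 against 3 libraries allow). Of reads given to any 3′ UTR cytosine, 75.6%, 69.2% and 75.7% stood at CTCCA in the NSun6 libraries and 26.6%, 42.5% and 28.8% in the NSun3 libraries, a difference of 40.9 percentage points (exact two-sided permutation test, p = 0.1). With each cytosine counted once, whatever its reads, the shares were 50.5%, 32.5% and 46.2% in the NSun6 libraries and 5.18%, 3.33% and 27.8% in the NSun3 libraries, and the difference was 31 percentage points. The NSun3 shares of reads rest on 207 to 919 reads, and the 88 reads of TNIP2 were all the CTCCA reads of replicate 2. Of reads given to any 3′ UTR cytosine, CTCTA held 6.91% ± 0.396 for NSun6 and 0.409% ± 0.0786 for NSun3 (SD, n = 3, exact two-sided permutation test, p = 0.1). The NSun3 shares were 0.326%, 0.483% and 0.417% of 919, 207 and 240 reads, so each rests on very few reads.

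Within the NSun6 libraries the mean share of reads at CTCCA was 73.5% ± 3.72 in 3′ UTRs and 66.2% ± 4.42 in coding exons (SD, n = 3), given as a description since the chosen sites hold much of these reads, and the difference was 7.25 percentage points with an SD of 0.849, in the same direction in 3 of 3 libraries. The 548 sites together held 51.2% to 57.6% of the reads given to 3′ UTR cytosines, of which 22071 had at least 1 NSun6 read.

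Bisulfite reads were then examined at the same cytosines, a readout that the rule did not use. More than 5 reads covered 442 of the 548 sites, with a median coverage of 81.5 reads and quartiles of 26 and 244. The median level, the share of reads left unconverted, was 0%, and 207 of 442 sites had at least 1 methylated read. A level of 20% or more was reached by 11 sites, or 2.49% (exact 95% interval 1.25% to 4.41%), where 0.402% of all 3′ UTR cytosines with more than 5 reads reached it, 0.647% of first cytosines of CTCCA with no NSun6 read and 0.184% of those with NSun6 reads below the threshold. A level of 10% or more was reached by 28 sites, or 6.33% (4.25% to 9.03%), against a background of 1.09%. With more than 20 reads required the share was 5.49% (3.34% to 8.44%) against 0.629%. Intervals from bisulfite reads cover counting error only.

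The motif without NSun6 reads showed lower shares. Of first cytosines of CTCCA in all 3′ UTRs with no NSun6 read within 2 nt, 1.73% had a level of 10% or more, and with more than 20 reads 1.11%. Where NSun6 reads were present but under the threshold, 0.507% reached a level of 10%, or 0.230% with more than 20 reads. In coding exons 7.23% (5.06% to 9.96%) of the NSun6 sites reached 10%, an interval that overlaps that of the 3′ UTR sites.

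The 3′ UTR sites with marked levels stood alone among their neighbours. None of the 28 sites at 10% or more had another cytosine at 10% or more within 25 nt, and they lay in 28 genes, with a median coverage of 53.0 reads. Of the 926 covered CTCCA pentamers with no NSun6 read in the same 3′ UTRs 13 reached 10%, with a median coverage of 10 reads, and 12 of these had another such cytosine within 25 nt.

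Averaged over sites with CTCCA, the first cytosine had a mean level of 2.52% (397 cytosines), the second 0.0293% (393 cytosines) and the third 0.0206% (403 cytosines). At the pentamers with no NSun6 read the same cytosines had 0.536%, 0.537% and 0.576%. The mean level was thus raised at 1 of the 3 cytosines of the motif in the NSun6 sites, and at the unread pentamers the 3 cytosines had similar means. A minority of sites carried the raised mean, since the median at the first cytosine was 0% and 28 of the 397 reached 10%.

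**Figure D3:**
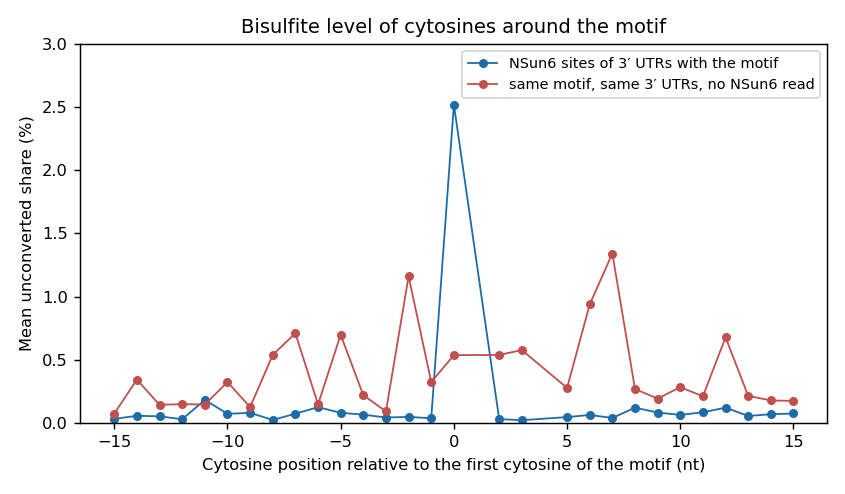
Mean unconverted share (percent) of cytosines with more than 5 bisulfite reads at each position relative to the first cytosine of CTCCA; blue, NSun6 sites of 3′ UTRs, red, CTCCA in the same 3′ UTRs with no NSun6 read, with other NSun6 sites left out at positions other than 0. The blue line reaches 2.52% at position 0 and is at most 0.181% at the other positions, while the red line is at 0.536% there and higher at several flanking positions.

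Each site was also compared with the other cytosines within 25 nt by Fisher's exact test on reads, adjusted by Benjamini-Hochberg over the 1225 nuclear NSun6 sites that could be tested. The level was above that of the neighbours at an adjusted p under 0.05 in 117 of 442 3′ UTR sites (26.5%, exact 95% interval 22.4% to 30.8%), close to the 27.2% called over all 1225 nuclear sites, and below it in 0. Neighbours with hardly any methylated reads leave little room for a call below them, so this 0 carries no weight. In coding sites it was 33.6% (29.4% to 38.1%). The 117 sites lay in 113 genes. Their levels had a median of 2.75% and quartiles of 1.10% and 6.78%, where the neighbours had a median of 0.0292%. Coverage moved with the call, since the called sites had a median of 276 reads and the tested sites that were not called 56.0.

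Among sites with more than 20 reads that passed this test, the 8 with the highest levels are described, and the sequences of those not shown above are given so that they can be compared with the strongest sites.
FURIN, chr15:91425527-91425556, plus strand: ggaggaggccacctCTCCAagggcttctgc
TIMM50, chr19:39980570-39980599, plus strand: tgtgtcccgagagtCTCCAgatgggggcat
KREMEN1, chr22:29541777-29541806, plus strand: gctctggctcaagaCTCCAatcggccagaa
CALM3, chr19:47112704-47112733, plus strand: gagcctctgccctcCTCCAgcccggatggc
SCMH1, chr1:41493737-41493766, minus strand: gggccacctcaggaCTCCAagaggctgtgt
REEP6, chr19:1497264-1497293, plus strand: ccaggctcccaggcCTCCAcagagtcttca
RAB15, chr14:65413362-65413391, minus strand: tcacttccttactcCTCCAaaaagaagtgg
The capitals again mark the assigned cytosine and the 4 bases behind it.

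FURIN, a protease that cleaves proproteins in the secretory pathway, had 176 methylated of 276 reads, a level of 63.8% (exact 95% interval 57.8% to 69.4%), where its neighbours had 0.0558% (Fisher's exact test, adjusted p = 2.4e-254). TIMM50, a subunit of the inner membrane translocase of mitochondria, had 170 of 350 reads, or 48.6% (43.2% to 53.9%), against 0.0537% (Fisher's exact test, adjusted p = 6.49e-196). These sites held 1071, 1018 and 976 RPM and 735, 776 and 920.1 RPM in the NSun6 libraries.

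KREMEN1, a receptor for Dickkopf proteins in Wnt signalling, had a level of 37.7% (23 of 61 reads, 25.6% to 51.0%) at 191, 139 and 95 RPM, well under FURIN in RPM. RHOG had 27.3% (6 of 22 reads, 10.7% to 50.2%). CALM3, a calmodulin gene, had 23.1% (12 of 52 reads, 12.5% to 36.8%). The intervals of these 3 overlap, since 22 to 61 reads stood behind them.

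SCMH1, a Polycomb group gene, had 21.1% (8 of 38 reads, 9.55% to 37.3%), REEP6 20% (13 of 65 reads, 11.1% to 31.8%) and RAB15, a small GTPase, 18.3% (17 of 93 reads, 11.0% to 27.6%). REEP6 and RAB15 were weak in miCLIP, with 15.4, 87.7 and 108 RPM and 55.6, 74.9 and 29.5 RPM. At each of the 8 sites the neighbours had less than 0.5%. With fewer reads, PITPNB had 8 of 19 reads methylated (42.1%, 20.3% to 66.5%). SDC3, named after its value was seen, had 9 of 12 (75%, 42.8% to 94.5%), the highest level of any covered site.

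**Figure D4:**
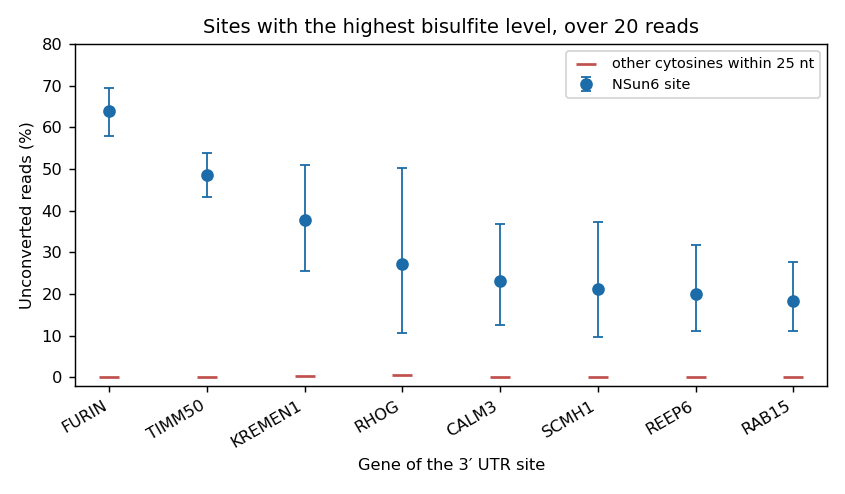
Unconverted bisulfite reads (percent) at the 8 sites with the highest level among those with more than 20 reads and an adjusted p under 0.05 in Fisher's exact test; blue points are the site with its exact 95% binomial interval, red dashes the pooled other cytosines within 25 nt. Levels fall from 63.8% in FURIN to 18.3% in RAB15, and every interval lies above the neighbours.

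Levels differed widely among the sites with the highest RPM. PITPNB (42.1%, 8 of 19 reads) and RHOG (27.3%, 6 of 22 reads) had the highest levels of the 10 strongest sites, from few reads. Of the others, MLF2 had 4.16% (29 of 697 reads), ECHS1 4.23% (104 of 2461 reads), SCRN1 10.5% (37 of 351 reads), NVL 16.5% (14 of 85 reads) and CALR 1.12% (4 of 356 reads, 0.307% to 2.85%). DAB2IP had 1 of 271 reads methylated and did not pass the test (0.369%, 0.00934% to 2.04%; Fisher's exact test, adjusted p = 0.421). The histone sites H4C1 and H4C4 had 5 bisulfite reads each and were not tested. Replication-dependent histone mRNAs lack a poly(A) tail, and the bisulfite RNA was poly(A) RNA; the part of this in their coverage was not tested. Sites of other genes had as few reads, such as TNRC6B with 4 and FAM222B with 0 at its strongest site.

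Levels and RPM moved together across sites. A level of 10% or more was found in 20 of 156 covered sites among the 182 with the highest RPM (12.8%, 8.01% to 19.1%), in 6 of 142 among the next 182 (4.23%, 1.57% to 8.97%) and in 2 of 144 among the lowest 184 (1.39%, 0.169% to 4.93%). Spearman's rank correlation of mean RPM and level was 0.271 over 442 sites and 0.304 over the 346 with more than 20 reads. That of mean RPM and coverage was 0.0744 over all 548 sites, among them 43 with no bisulfite read. The threshold had cut the range of RPM, so this value does not tell how RPM depends on coverage. These are descriptions across sites of the same libraries. Of the 193 sites with more than 100 bisulfite reads, 61 had no methylated read. A further ECHS1 site, which does not begin with CTC, had 0 of 3766 reads methylated, which allows up to 0.0797%. The strong site in the same 3′ UTR, with CTCCA, had 4.23%. The EHD4 site, at 1050.1 RPM on average, had 11.1% of 1051 reads. The further ECHS1 site and the EHD4 site were named after their values were seen.

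Sites with CTCTA had no level of 10% or more in 31 covered sites (0%, exact 95% interval up to 11.2%), while 28 of 397 covered sites with CTCCA had one (7.05%, 4.74% to 10%). By Fisher's exact test 7 of the 31 (22.6%, 9.59% to 41.1%) and 110 of the 397 (27.7%, 23.4% to 32.4%) were above their neighbours. The intervals of the 2 sequences overlap for both measures. Sites with T before CTCCA were above their neighbours in 21% (52 of 248, 16.1% to 26.6%) and those with another base in 38.9% (58 of 149, 31.1% to 47.2%), with median coverage of 69.5 and 120 reads. At 10% or more the shares were 7.26% and 6.71%, with overlapping intervals. The part of coverage in the first difference was not tested.

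The predicted pairing of the RNA around the motif was computed from the spliced transcript with 50 nt on each side. At the assigned cytosine of the 490 sites with CTCCA the probability of being unpaired had a median of 0.865 and quartiles of 0.364 and 0.989. At CTCCA with no NSun6 read in the same 3′ UTRs the median was 0.305 and the quartiles 0.0282 and 0.835 (1377 pentamers), and over the 926 with more than 5 bisulfite reads it was 0.231. The coding sites had a median of 0.780 (506 sites). Both kinds of NSun6 site were more often open at the motif than unread copies of it, and the flanks showed the reverse: the mean unpaired probability of the bases 10 to 4 nt before and 7 to 13 nt behind the first cytosine had a median of 0.362 in the 3′ UTR sites, 0.364 in the coding sites and 0.460 in the unread pentamers.

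**Figure D5:**
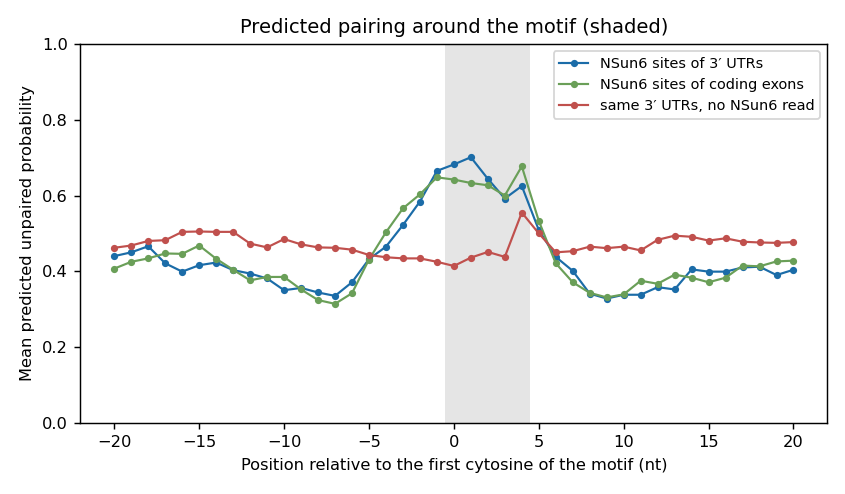
Mean predicted probability of being unpaired at each base from 20 nt before to 20 nt behind the first cytosine of CTCCA (shaded motif); blue, 3′ UTR sites (490), green, coding sites (506), red, CTCCA with no NSun6 read in the same 3′ UTRs (1377). Blue is highest at position 1 (0.701) and green at position 4 (0.677), and both fall on the flanks, blue to 0.335 before and 0.328 behind the motif, and red stays between 0.414 and 0.555.

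A motif predicted open between paired flanks, with a mean unpaired probability above 0.8 over the 5 bases and below 0.3 over the flanks, was found in 103 of 490 sites (21%), in 16% of coding sites and in 28 unread pentamers (2.03%). These limits were set after the sequences had been seen. Such sites reached a level of 10% or more in 12 of 81 covered cases (14.8%, 7.90% to 24.4%) and the other sites with CTCCA in 16 of 316 (5.06%, 2.92% to 8.09%), intervals that overlap narrowly, with median RPM of 118 and 109.7 and median coverage of 45.0 and 90.0 reads. The part of coverage in this difference was not tested. Among the 9 strongest sites with CTCCA shown above, the unpaired probability of the cytosine was 0.991 in CALR, 0.981 in H4C1, 0.439 in RHOG, 0.857 in PITPNB, 0.0982 in MLF2, 0.993 in ECHS1, 0.998 in SCRN1, 0.101 in NVL and 0.989 in DAB2IP. Among the other sites with the highest bisulfite levels it ran from 0.482 in RAB15 to 1.00 in KREMEN1. Low values were also predicted at NDUFS5 (0.0164), CNOT9 (0.0362), H2AC16 (0.0504) and the strongest NOVA2 site (0.0653).

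Along the 3′ UTR the sites were spread out. Their distance behind the stop codon had a median of 573 nt and quartiles of 224 and 1410 nt, in 3′ UTRs with a median length of 1791 nt. With each 3′ UTR divided into 4 equal stretches from the stop codon on, 162, 156, 133 and 97 sites lay in these in order. For CTCCA alone the last stretch held 17.1% of the sites and 22.7% of the unread pentamers. Within 100 nt of the stop codon lay 12.2% of sites with CTCCA and 3.91% of unread pentamers, but the 3′ UTRs behind these numbers differed in length, with medians of 1796 and 3707 nt, because long 3′ UTRs contribute more pentamers.

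Most genes had a single site. Of 493 genes 446 had 1 site, 40 had 2 and 7 had 3 or more. NOVA2, a splicing factor best known from neurons, had 4, and CALM3, EDC3, FAM222B, H4C1, MLX and PIP4K2C had 3 each. These are counts of cytosines, and in NOVA2, CALM3 and H4C1 the same motif was counted more than once. Neighbouring sites of a transcript were 2 to 3905 nt apart, and in 11 of 54 pairs 10 nt or less.

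In NOVA2 the strongest site held 531, 618 and 688 RPM and the other 3 had means of 45.4 to 67.4 RPM, among them a later cytosine of the same motif at 48.5 RPM. In CALM3 the site with the level of 23.1% held 883, 793 and 652 RPM, a later cytosine of the same motif 114, 6.42 and 55.7 RPM and a site further upstream a mean of 40.7 RPM. FAM222B had a site with 1213, 992 and 1169 RPM and 2 others with means of 49.0 and 62.1 RPM. The second and the third site of H4C1 (74.1, 94.1 and 134 RPM, and 49.4, 94.1 and 68.8 RPM) lay 2 and 12 nt behind the first. The second is a later cytosine of the same CTCCA, and the third does not begin with CTC. In these 4 genes 1 site dominated, whereas in EDC3, an enhancer of mRNA decapping, the means were 183, 113 and 45.7 RPM.

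Gene groups were counted among the 12878 protein-coding genes with a covered 3′ UTR cytosine, of which 3.79% had a site. Over protein-coding genes the median bisulfite coverage of a gene was 27.2 reads. The groups differed in coverage, and its part in their shares was not tested. RNA processing genes had sites in 10 of 114 hnRNP and splicing factors (8.77%, median coverage 57.7 reads) and in 5 of 51 genes of mRNA 3′ end formation and decay (9.80%, 39.7 reads). Among the former were SRSF1, a splicing regulator (463, 383 and 458 RPM), SF3B5, a subunit of the SF3b complex (457, 334 and 344 RPM), and RBM47 (204, 186 and 157 RPM). Among the latter were TNRC6B (401, 329 and 265 RPM) and TNRC6A (89.5, 66.3 and 78.6 RPM), scaffold proteins of miRNA silencing, and CNOT9 (136, 111 and 170.3 RPM), a subunit of the deadenylase complex. The counts are small and were not tested against other genes. The sites of SRSF1 and SF3B5 given here had levels of 1.83% (66 of 3607 reads) and 0.834% (41 of 4917 reads), both above their neighbours (Fisher's exact test, adjusted p = 5.63e-48 and 1.01e-33). A second SF3B5 site (129.7, 118 and 236 RPM) had a level of 0.174% (8 of 4588 reads; Fisher's exact test, adjusted p = 0.00130). Above their neighbours were 5 of 9 tested sites of the splicing list and 0 of 5 of the 3′ end and decay list, beside 26.5% of all tested 3′ UTR sites, and the difference between the lists was not tested. CTCCA stood at 50% of the 6 sites of the latter list, beside 89.4% of all 3′ UTR sites.

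In the other groups sites were found in 4 of 67 translation factors (5.97%), 4 of 87 nuclear genes of oxidative phosphorylation (4.60%), 1 of 18 glycolytic genes (5.56%), 4 of 93 cell cycle genes (4.30%), 4 of 69 chaperones (5.80%), 6 of 124 genes of endoplasmic reticulum folding and secretory traffic (4.84%), 6 of 112 genes of chromatin and histones (5.36%), 2 of 62 cytoskeletal genes (3.23%) and 6 of 197 genes of ubiquitin and the proteasome (3.05%). Median gene coverage in these groups ran from 36.0 reads for ubiquitin and the proteasome to 284 for glycolysis. Of 73 cytosolic ribosomal protein genes 0 had a site, which allows a share of up to 4.11%. Their 3′ UTRs had a median length of 254 nt, against 1417 nt over protein-coding genes, and the part of length was not tested. Of 14 genes that write or read m5C in RNA 0 had a site, which allows up to 21.4%.

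Among these groups EIF4H (142, 148 and 111 RPM), EIF4G1 (102, 81.3 and 141 RPM) and EIF3I (34.0, 149.7 and 115 RPM) belong to translation initiation. The complex I subunit gene NDUFS5 had 321, 289 and 403 RPM with 0 of 238 reads methylated, which allows up to 1.26%, and the ATP synthase gene ATP5MC2 had 299, 299 and 196 RPM with 0 of 521 reads, which allows up to 0.576%. MCM2, a subunit of the replicative helicase, held 2 strong sites of 432, 364 and 426 RPM and 219, 207 and 160.4 RPM, at levels of 0.512% and 0.329%, and both also lie in an exon of another gene.

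PKM, the pyruvate kinase of glycolysis, had 235, 126 and 189.9 RPM and STIP1, a cochaperone that joins HSP70 and HSP90, 284, 291 and 331 RPM. COPZ1, a subunit of the COPI coat, had 497, 413 and 498 RPM and a level of 2.15% (2 of 93 reads, 0.262% to 7.55%). The strongest site of the chromatin and histone group, a list without H4C1 and H4C4, was that of H2AC16, a histone H2A gene, with 491, 340.0 and 485 RPM and 3 bisulfite reads. KDM2A, a histone demethylase, had 315, 289 and 272 RPM, UBE2L3, a ubiquitin-conjugating enzyme, 250.1, 225 and 252 RPM, and TUBB, a beta-tubulin, had sites of 161, 74.9 and 128 RPM and of 127, 103 and 98.2 RPM. Of the sites of PKM, STIP1, COPZ1, KDM2A, UBE2L3 and TUBB, COPZ1 alone passed Fisher's exact test against its neighbours (adjusted p = 0.0144).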

How the data were processed

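The miCLIP files held read counts per genome position, deposited by the authors after reads with identical random barcodes had been collapsed, adapters trimmed, reads of at least 18 nt kept and unique matches placed on hg19 with bowtie. The bisulfite table held methylated and unmethylated read counts per cytosine and a percent level, deposited by the authors from Bismark output and not split between both poly(A) samples. Per the methods, levels were made both with potential PCR duplicates kept and with them removed; which version this table holds is not given in the sources used here, so intervals cover counting error only.

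The files have no strand column. Each file runs through the chromosomes in 2 passes, and the first was read as the plus strand; 97.0% to 97.4% of NSun6 positions in exons annotated on 1 strand lay on that strand, and 63.0% to 82.0% of NSun3 positions. RPM was calculated over all reads of a library, and genes came from GENCODE 44 lifted to GRCh37. Cytosines with more than 5 bisulfite reads counted as covered. Shares have exact binomial 95% intervals, and a count of 0 was given an upper limit of 3 counts. Fisher's exact tests were adjusted by Benjamini-Hochberg over 1225 sites. On simulated bisulfite reads for these 1225 sites the test called 78.0% of 200 sites raised to a level of 10% and 97.5% of 200 raised to 30%. Of the calls, 0.637% and 2.01% fell on sites that had not been raised. The simulation drew independent reads at 1 common neighbour level, and did not cover the levels under 10% that most called sites had. Pairing was predicted with ViennaRNA 2.7.2, and statistics were calculated with scipy 1.17.1 in Python 3.11.15.

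No source says whether replicates came from separate cultures, so the permutation p-values refer to these libraries only. The p-values of Fisher's exact tests rest on reads of the pooled bisulfite table and cover counting error only, not a spread between samples. The sites, the gene lists and the tests were chosen with earlier results of these data known. Sites named were the 10 highest by RPM, the 8 highest by bisulfite level with more than 20 reads and a passed Fisher test, those of the 5 genes with most sites (ties by alphabet), sites among the 3 strongest of each gene list, the 5 with most NSun3 reads, and the 3 cytosines just inside and just outside the threshold; MLX, PIP4K2C, SDC3, EHD4 and the second ECHS1 site were added after their values were seen.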

Additional observations from a re-analysis of the deposited data

How the results depend on the processing

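The number of sites followed the RPM threshold, with 1166 sites over 20 RPM and 302 over 100 RPM in place of 548, and leaving out 1 NSun6 library each gave 437 to 452. The CTCCA share was 84.2% over 20 RPM and fell to 44.4% when a tie went to the 3′ cytosine, because read starts on the T then count for the second cytosine. Counting any cytosine of CTCCA gave 91.3% under that tie rule, an alternative chosen after seeing the data. The share of covered sites called methylated was 2.49% at a level of 20% and 6.33% at 10%, and at a level of 20% it was 1.30% for sites over 20 RPM and 3.98% over 100 RPM. Without 1 NSun6 library each, CTCCA shares were 88.6% to 89.1% and methylated shares 2.70% to 3.01%.

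The differences between the enzymes, which include the reads that chose the sites, kept their direction under every alternative run. Leaving out 1 library gave 21.1 to 21.3 percentage points for reads in 3′ UTRs and 37.8 to 45.8 for reads at CTCCA, and the difference between 3′ UTRs and coding exons was 6.86 to 7.70. With the replicate number as a block the differences were 21.2 and 40.9 percentage points (exact test on paired differences, p = 0.25 for each, the smallest that 3 pairs allow). The deviations of same-numbered libraries correlated at 0.0116, 0.0189 and 0.0459 over 3749 cytosines, and those of differently numbered ones at -0.0873 to 0.0726. Whether same-numbered libraries were prepared together cannot be told from these values, since the NSun3 libraries held few reads. The bisulfite table has no replicate error, and 106 sites could not be read there because they had 5 reads or fewer.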
